A study of Mus musculus with 51 samples.

Results

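The strain comparison set the lung of BALB/c mice, labelled Balb/c, beside that of C57BL/6 mice, both without respiratory exposure to the chemical under study. The members were the 3 BALB/c control arrays and the 6 C57BL/6 control arrays, chosen by their titles, 9 of the 51 arrays of the series, and all 22206 probe sets were tested. The mice were males aged 6 to 8 weeks. The back skin of every animal, the controls included, had received 1% MDI (methylene diphenyl diisocyanate) in acetone on 2 occasions, so both groups are skin-sensitized rather than untreated. MDI is a reactive chemical used to make polyurethane and a known cause of occupational asthma. Under isoflurane, the controls received through the nose, on days 15, 16, 19 and 20, a solution in which MDI and glutathione had each been reacted separately, and no crofelemer. Perfused and lavaged lung was taken 48 h after the last exposure, and 250 ng of total RNA was labelled with biotin for 1-colour arrays.

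BALB/c and C57BL/6 are inbred strains that carry different haplotypes of the H2 complex, which encodes the antigen-presenting molecules, and of the natural killer gene complex, which encodes lectin-like receptors of natural killer cells. C57BL/6 cells are known for a T helper 1 bias and BALB/c cells for a T helper 2 bias in several infection models. Because inbred strains differ in sequence, a probe designed on one genome can bind less well to the transcript of the other. The probe sequences and strain genomes were not used here, so the part of such variants in any difference below was not tested.

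The labelled tissue was checked against lung markers. Sftpc, the surfactant protein of alveolar type 2 cells, had a log2 signal of 19.43 ± 0.06 (SD, n = 3) in BALB/c and 19.58 ± 0.04 (n = 6) in C57BL/6 lung, and Scgb1a1, the secretoglobin of club cells, 19.82 ± 0.19 and 19.99 ± 0.02. The arrays of each strain correlated at 0.9908 to 0.995 with one another, against 0.9782 to 0.9818 between strains, and the first principal component, with 53.9% of the variance, separated the strains. Array means as deposited lay between 7.378 and 7.386 in BALB/c and between 7.486 and 7.515 in C57BL/6 controls, with no overlap. The arrays were therefore quantile normalized together, but a difference in how the authors processed the 2 sets cannot be told apart from strain. The labels do not say that each array is a separate animal, so p-values measure the spread between these arrays. Lung is a mixture of cells, and in bulk RNA fewer cells of a type and less RNA per cell cannot be told apart.

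Of the 22206 probe sets, 6401 (28.8%) passed the test at an adjusted p under 0.05 (limma, Benjamini-Hochberg over all probe sets), 3257 (14.7%) with a higher and 3144 (14.2%) with a lower level in BALB/c. Differences are given as log2 of BALB/c minus C57BL/6, where 1 is a 2-fold change. A called difference of at least 2-fold was found for 1233 probe sets (5.55%), 570 higher (2.57%) and 663 lower (2.99%). At a log2 difference of 3 or more there were 19 higher and 38 lower probe sets, and at 4 or more there were 9 and 14. The arrays of the strains did not overlap for 6160 probe sets (27.7%). The largest differences were thus more often lower in BALB/c, while the calls as a whole were split evenly, with a median difference over all probe sets of 0.01. That even split depended on the scaling: 35% of calls were higher in BALB/c with the values as deposited (median difference -0.13) and 68.6% with arrays centred on their median (0.11), against 50.9% here.

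**Figure D1:**
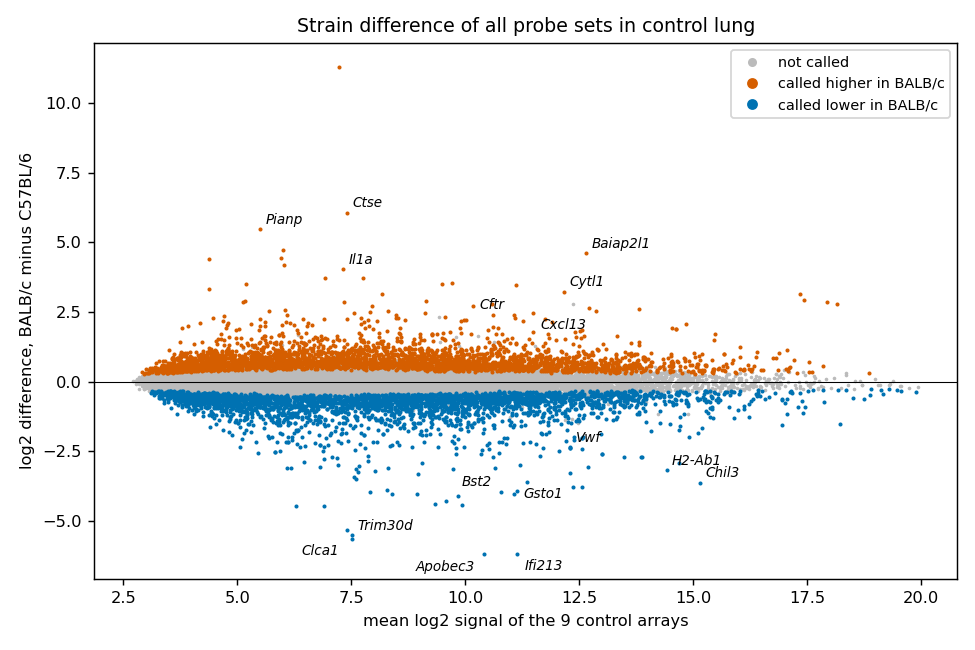
Log2 difference of BALB/c minus C57BL/6 (vertical axis) against the mean log2 signal of the 9 control arrays (horizontal axis) for each of the 22206 probe sets. Orange points were called higher and blue points lower in BALB/c; the single point above 10 is an unnamed probe set with a difference of 11.29, and Apobec3 and Ifi213 are at the lower edge.

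Among genes with a proper name, cathepsin E (Ctse), an intracellular aspartic protease, had the largest higher difference. Its log2 signal was 10.80, 11.85 and 11.71 in the BALB/c arrays and 4.57 to 6.19 (median 5.46) in the C57BL/6 arrays. The groups stood far apart, with a difference of 6.07 ± 0.32 (SE; adjusted p = 6.76e-10). Pianp, which encodes a ligand of the paired immunoglobulin-like receptor PILR-alpha, had 9.16, 9.09 and 9.19 against 3.47 to 3.94 (median 3.67), a difference of 5.47 ± 0.16. It lay at the dim end of the scale in C57BL/6 only. Baiap2l1, a regulator of actin at curved membranes, was bright in both strains, at 15.57, 15.74 and 15.86 against 10.90 to 11.36 (median 11.06), and differed by 4.62 ± 0.13 (adjusted p = 4.30e-13). Fbp2, the muscle form of the gluconeogenic enzyme fructose bisphosphatase, differed by 4.72 ± 0.19 and Alpl, the tissue-nonspecific alkaline phosphatase, by 4.45 ± 0.19. The inducible bradykinin receptor Bdkrb2 differed by 4.19 ± 0.21, and the alarmin cytokine Il1a, at 9.62 to 10.33 against 4.44 to 6.67 (median 6.20), by 4.04 ± 0.36.

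Members of the Serpina1 cluster, which encodes alpha-1 antitrypsin, the main inhibitor of neutrophil elastase, were higher in BALB/c. Serpina1a differed by 3.73 ± 0.20 and Serpina1b by 3.32 ± 0.15, and the neighbours Serpina1c and Serpina1e were higher by 2.11 ± 0.21 and 1.84 ± 0.21 (adjusted p = 1.68e-06 and 9.80e-06). These paralogs are near-identical copies, and probes could be shared between them, so the assignment to a single copy is uncertain. Others of the 15 largest were Veph1 (3.73), Sfi1 (3.51), a centrosomal gene, Masp2 (3.49), a serine protease of the lectin pathway of complement, and the secreted protein Cytl1 (3.23). The list also held the muscle genes Myl1 (3.55 ± 0.74, adjusted p = 0.002), a light chain of skeletal myosin, and Myoz2 (3.48 ± 0.64), a protein of the sarcomere. Myl1 stood at 14.01, 10.88 and 11.33 in BALB/c, and the first array was also the highest for the muscle markers described below.

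The gene with the largest lower difference was Apobec3, a cytidine deaminase that restricts retroviruses. It had 6.05, 6.31 and 6.49 in BALB/c and 12.27 to 12.65 (median 12.49) in C57BL/6, a difference of -6.19 ± 0.15 (adjusted p = 3.45e-14). Ifi213, a member of the interferon-inducible p200 family of nucleic acid sensors, had 7.09, 6.63 and 7.36 against 12.83 to 13.91 (median 13.11), a difference of -6.16 ± 0.21. Trim30d, a tripartite motif gene, had 3.67, 4.04 and 3.78 against 8.84 to 9.94 (median 9.21), a difference of -5.51 ± 0.23. In these genes every BALB/c array lay far below every C57BL/6 array. Bst2, or tetherin, which holds budding virions at the cell surface, had 8.24, 8.14 and 8.11 against 11.74 to 12.79 (median 11.93), a difference of -3.94 ± 0.21. Serpinb9, the inhibitor of granzyme B, differed by -3.77 ± 0.15. Both were separate between the strains in every array. Clca1, a secreted protein of goblet cells, differed by -5.63 and is described with the airway genes.

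The remaining members of the 15 largest lower differences had other roles. Gsto1, an omega-class glutathione transferase, had 8.25, 8.44 and 8.47 against 11.77 to 13.33 (median 12.32), a difference of -4.02 ± 0.25 (adjusted p = 8.50e-09). Pttg1, or securin, which holds back the separation of sister chromatids, differed by -4.43 ± 0.16, and Slc6a2, the noradrenaline transporter, by -4.10 ± 0.28. The calcium-binding protein S100a1 differed by -4.02 ± 0.18, the protease inhibitor A2ml1 by -4.28 ± 0.31 and Nxpe4 by -3.96 ± 0.16. Vmn2r29, a vomeronasal receptor gene, and the pseudogene Pisd-ps3 differed by -3.88 ± 0.17 and -3.77 ± 0.20. Both have close copies elsewhere in the genome, so their signal may be shared between copies. Reg3g, an antimicrobial lectin of mucosal surfaces, differed by -3.91 ± 0.96 (adjusted p = 0.00609), with wide and overlapping groups (9.76, 7.18 and 8.64 against 9.37 to 15.47, median 12.66). Its call ended with robust eBayes (adjusted p = 0.0815).

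**Figure D2:**
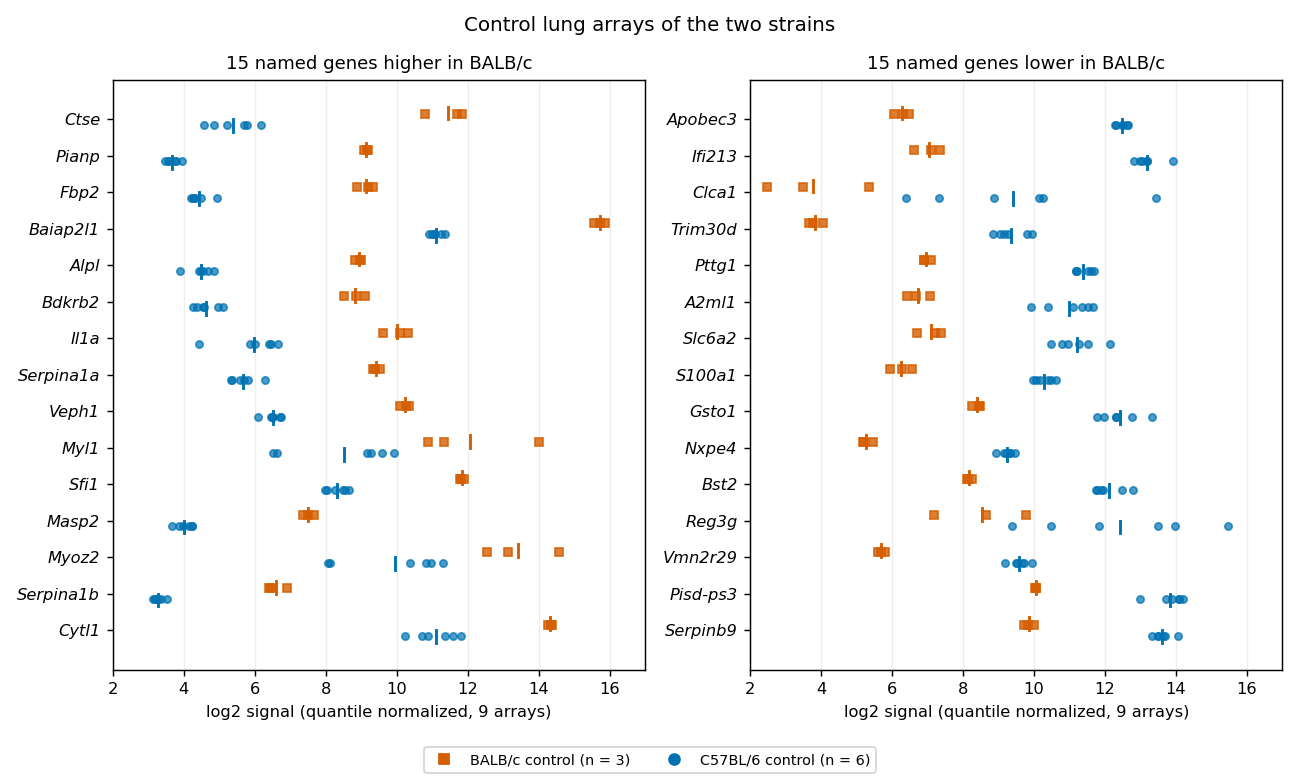
Log2 signal (horizontal axis, quantile normalized over 9 arrays) of the 15 named genes with the largest higher difference (left) and the 15 with the largest lower difference in BALB/c (right). Squares are the 3 BALB/c arrays, circles the 6 C57BL/6 arrays and short bars group means; the groups are separate for every gene shown except Reg3g, and Clca1, Reg3g, Myl1 and Myoz2 have visibly wide groups.

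The promoters of 4 of the strongly lower genes are shown because they share a short sequence of the kind recognised by interferon regulatory factors. The motif searched was 2 copies of GAAA with any 2 bases between them, on either strand (TTTC on the other), in windows of 250 bases before to 50 bases after the gene start from RefSeq (GRCm38.p6, a C57BL/6 reference). Capitals mark the match, and each line reads 5′ to 3′ on the gene's strand. The windows are chr15:79892158-79892457 (plus strand) for Apobec3, chr1:173599223-173599522 (minus) for Ifi213, chr8:71537423-71537722 (minus) for Bst2 and chr7:104507800-104508099 (minus) for Trim30d.
Apobec3: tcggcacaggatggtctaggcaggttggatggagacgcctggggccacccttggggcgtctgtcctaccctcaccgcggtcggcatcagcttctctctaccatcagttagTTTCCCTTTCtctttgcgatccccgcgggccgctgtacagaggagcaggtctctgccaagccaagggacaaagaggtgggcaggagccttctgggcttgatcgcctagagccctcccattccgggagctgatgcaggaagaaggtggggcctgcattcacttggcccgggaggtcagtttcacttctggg
Ifi213: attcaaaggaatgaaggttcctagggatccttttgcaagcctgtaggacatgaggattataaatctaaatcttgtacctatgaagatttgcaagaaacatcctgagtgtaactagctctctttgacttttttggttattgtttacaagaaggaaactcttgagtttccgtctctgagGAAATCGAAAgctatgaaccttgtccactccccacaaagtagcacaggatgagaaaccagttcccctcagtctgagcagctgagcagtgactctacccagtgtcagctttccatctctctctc
Bst2: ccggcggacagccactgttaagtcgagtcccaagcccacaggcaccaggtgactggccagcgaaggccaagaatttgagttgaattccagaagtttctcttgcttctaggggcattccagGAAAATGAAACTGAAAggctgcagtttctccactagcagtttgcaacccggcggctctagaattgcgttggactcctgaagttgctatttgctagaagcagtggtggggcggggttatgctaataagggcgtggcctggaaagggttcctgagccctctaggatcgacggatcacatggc
Trim30d: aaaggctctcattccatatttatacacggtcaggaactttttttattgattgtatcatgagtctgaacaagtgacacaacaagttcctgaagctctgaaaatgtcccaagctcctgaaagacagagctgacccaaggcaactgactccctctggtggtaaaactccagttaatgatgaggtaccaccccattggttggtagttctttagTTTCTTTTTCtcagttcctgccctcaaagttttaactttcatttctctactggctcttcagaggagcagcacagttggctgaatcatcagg
The match began 140 bases before the start in Apobec3, 73 in Ifi213 and 41 in Trim30d, and in Bst2 there were 2 overlapping matches that began 130 and 124 bases before it. Of the 15 named genes with the largest lower difference, 12 had a promoter in the table and 5 held the motif (these 4 and Serpinb9), against 0 of 13 for the 15 largest higher differences. Over all promoters 1131 of 32851 promoters held it (3.44%), and of genes called at least 2-fold, 6.6% of the lower and 5.0% of the higher ones, against 3.9% of measured genes. In the interferon-inducible p200 family 6 of 8 did. A match is a description of these reference letters. The BALB/c letters at these places were not used here.

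Most called genes of the H2 lists were lower in BALB/c. Of 10 measured MHC class II genes, whose products present peptides to CD4 T cells, 6 were lower and 1 higher, with a median difference of -0.99. That was 70% called, against 28.8% of all probe sets. H2-Ab1, the class II beta chain, had 12.33, 12.30 and 12.27 in BALB/c and 14.98 to 15.84 (median 15.50) in C57BL/6, a difference of -3.18 ± 0.15 (adjusted p = 1.49e-10). H2-Aa, the alpha chain that pairs with it, was not called, at 14.74 ± 0.20 (SD) against 15.08 ± 0.45. H2-Eb1, the beta chain of the other class II molecule, differed by -2.12 ± 0.18. The peptide-loading genes moved in opposite directions. H2-DMb1 had 11.39, 11.32 and 11.08 against 13.36 to 14.38 (median 13.94) and differed by -2.59 ± 0.18, while its neighbour and close copy H2-DMb2 had 13.33, 13.12 and 13.54 against 10.70 to 11.48 (median 11.27) and differed by 2.15 ± 0.17 (adjusted p = 1.69e-07). Ciita, the master regulator of class II transcription, was not called (-0.31).

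Of 19 measured MHC class I genes, which present peptides to CD8 T cells, 10 were lower and 2 higher, with a median of -0.45. The share called was 63.2%, against 28.8% of all probe sets. H2-K1, a classical class I heavy chain, was bright in both strains, at 15.54, 15.12 and 15.31 against 16.11 to 16.50 (median 16.35), and differed by -0.999 ± 0.13 (adjusted p = 2.50e-05). H2-Q4 differed by -1.82 ± 0.24, H2-Q1 by -1.38 ± 0.17 and H2-Q10 by -1.24 ± 0.20. B2m, the shared light chain, was lower too, by a smaller difference of -0.45. Class I genes are near-identical copies that also differ between haplotypes, so levels of single genes are uncertain.

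The natural killer gene complex had the same lean. Of 10 measured Ly49 (Klra) receptor genes, whose products bind class I molecules, 5 were lower and 1 higher (median -0.83). Of 23 other lectin-like genes of the complex, 8 were lower and 3 higher (median -0.32). The shares called were 60% and 47.8%, against 28.8% of all probe sets. Klrb1c, whose product carries the NK1.1 antigen of C57BL/6 natural killer cells, had 5.83, 6.18 and 5.83 against 7.58 to 8.97 (median 8.59), a difference of -2.45 ± 0.26 (adjusted p = 4.22e-06). The related inhibitory receptor Klrb1b had 5.62, 5.04 and 5.18 against 8.24 to 9.42 (median 8.76), a difference of -3.49 ± 0.22. Both were separate between strains in all arrays. The activating receptor Klrk1 (NKG2D) differed by -1.68 ± 0.24. Clec2d, the ligand of Klrb1 family receptors, went the other way, at 16.82, 16.48 and 16.50 against 14.36 to 15.66 (median 14.72), a difference of 1.70 ± 0.24. Klra10 (-2.22 ± 0.27), Klra7 (-1.90 ± 0.25) and Klra13-ps (-1.79 ± 0.25) were lower and Klra3 (1.15 ± 0.22) higher; these genes differ in number and sequence between strains. Of 12 general natural killer cell markers 3 were higher and 2 lower (41.7% called, against 28.8% of all probe sets), with a median of 0.17. Their mean log2 level was 7.10 to 7.22 in BALB/c arrays and 6.65 to 7.66 in C57BL/6 arrays.

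Interferon-inducible genes were read as 3 multigene families and a classical set. Of 9 measured genes of the interferon-inducible p200 family, 6 were lower and none higher (66.7% called, median -1.54). Besides Ifi213, Ifi208 differed by -2.45 ± 0.22, Ifi204 by -2.24 ± 0.22 and Mndal by -1.54 ± 0.18, while the DNA sensor Aim2 was not called (-0.22). Of 7 genes of the Trim5, Trim12 and Trim30 family, 4 were lower and 2 higher (85.7% called). Trim12a differed by -2.24 ± 0.16 and Trim12c by 1.00 ± 0.21 (adjusted p = 0.00187). Of 13 measured interferon-inducible GTPases, which attack the vacuoles of intracellular microbes, 5 were lower and 3 higher (61.5% called). Irgm2 differed by -2.19 ± 0.21 and Gm4951 by -1.65 ± 0.31, against Gbp4 at 1.63 ± 0.17 and Gbp9 at 1.16 ± 0.16. Of 28 measured classical interferon-stimulated genes, 4 were lower, 2 higher and 22 not called, a share of 21.4% called against 28.8% of all probe sets, and their median was -0.05. Isg15 (-0.18), Irf7 (0.15) and Mx1 (-0.08) were among those not called, while Ifit3 (-1.10 ± 0.25), Ifi44l (0.77 ± 0.14) and Parp14 (1.02 ± 0.20) were. Ifi44l was at 0.48 with the values as deposited. Without BALB/c control 3, the Trim list had 2 lower and 2 higher. With arrays centred on their median the classical set turned to 6 higher and 3 lower, and the GTPases had 4 each way.

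The Ly6 family of small membrane-anchored proteins held 5 lower and 3 higher of 14 measured genes (57.1% called, against 28.8% of all probe sets). Ly6e, which is bright in lung and takes part in the entry of several viruses, had 17.33, 17.02 and 17.30 against 18.63 to 18.93 (median 18.69), a difference of -1.52 ± 0.10 (adjusted p = 2.16e-08). Ly6i differed by -2.65 ± 0.21, Ly6d by -1.56 ± 0.26 and Psca by -0.92 ± 0.13, whereas Gpihbp1, which anchors lipoprotein lipase on capillaries, was higher by 0.91 ± 0.16.

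Of 27 measured mucous and secreted airway genes, which goblet and club cells make, 9 were lower in BALB/c control lung and none higher. That was 33.3% called, against 28.8% of all probe sets (14.2% lower and 14.7% higher), and the median was -0.39. Clca1, a goblet cell protein that rises in allergic airways, had 5.34, 2.48 and 3.49 in BALB/c and 6.38 to 13.43 (median 9.50) in C57BL/6, a difference of -5.63 ± 1.05 (adjusted p = 0.000877). BALB/c arrays 2 and 3 were near the low end of the scale, and the C57BL/6 arrays themselves were far apart. Tff2, a trefoil peptide of mucus, differed by -2.82 ± 0.51, the membrane mucin Muc4 by -2.23 ± 0.26 and the secretoglobin Scgb1c1 by -1.10 ± 0.22. Muc5b, the main gel-forming mucin of resting mouse airways, had 9.00, 7.69 and 7.93 against 8.79 to 12.09 (median 10.35), a difference of -2.37 ± 0.55 (adjusted p = 0.00449). The groups overlapped in 1 array, and the call ended with robust eBayes (adjusted p = 0.0663). Muc5ac, the mucin induced in allergic airways, was not called, at 5.35 ± 0.69 (SD) against 5.73 ± 0.63. With robust eBayes 5 of the 27 were lower, and with arrays centred on their median 9 were lower and 3 higher. The club cell markers had a mean level of 17.24 to 17.39 in BALB/c and 17.19 to 17.91 in C57BL/6 arrays.

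Chitinase-like genes of macrophages and airway epithelium differed widely. Chil3 (Ym1) had 12.79, 12.69 and 12.72 in BALB/c and 15.61 to 17.63 (median 16.21) in C57BL/6, a difference of -3.62 ± 0.29 (adjusted p = 1.69e-07). Chil4 (Ym2) had 9.06, 8.82 and 9.00 against 11.21 to 14.38 (median 12.53), a difference of -3.58 ± 0.43. Every C57BL/6 array lay above every BALB/c array for both genes, which are close copies. The neighbouring Chia1, an enzymatically active chitinase, was higher, at 8.47, 8.59 and 8.49 against 6.26 to 8.39 (median 7.26), with a difference of 1.24 ± 0.34 (adjusted p = 0.0122; 0.0554 with robust eBayes, 0.056 with the replicate block, 0.0942 and 0.107 when 49 or 25 arrays were normalized together). Retnla, a product of alternatively activated macrophages, was not called, at 11.50 ± 1.03 (SD) against 12.97 ± 1.45 (difference -1.47 ± 0.63, adjusted p = 0.0904). It was called lower when 49 or 25 arrays were normalized together (adjusted p = 0.0375 and 0.0351), with array weights (0.0452), in the first block of records (0.0339) and without C57BL/6 control 6 (0.0448). C57BL/6 control 2 was the highest control for Clca1, Chil3, Chil4, Retnla, Reg3g, Tff2 and Muc5ac. Without it the Retnla difference was -0.96 (-0.94 without BALB/c control 2), and 9 mucous genes were lower and 1 higher. Of the 10 measured chitinase-like and resistin-like genes, 2 were higher and 2 lower (40% called, against 28.8% of all probe sets). The count was 1 higher and 4 lower without C57BL/6 control 6, 1 higher and 3 lower without BALB/c control 1 or C57BL/6 control 1, and 2 higher and 4 lower in the first block of records. The other higher member, Chil6 (0.54, adjusted p = 0.0487), lost its call in 10 of the 19 alternatives run for it, among them the values as deposited (0.23).

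**Figure D3:**
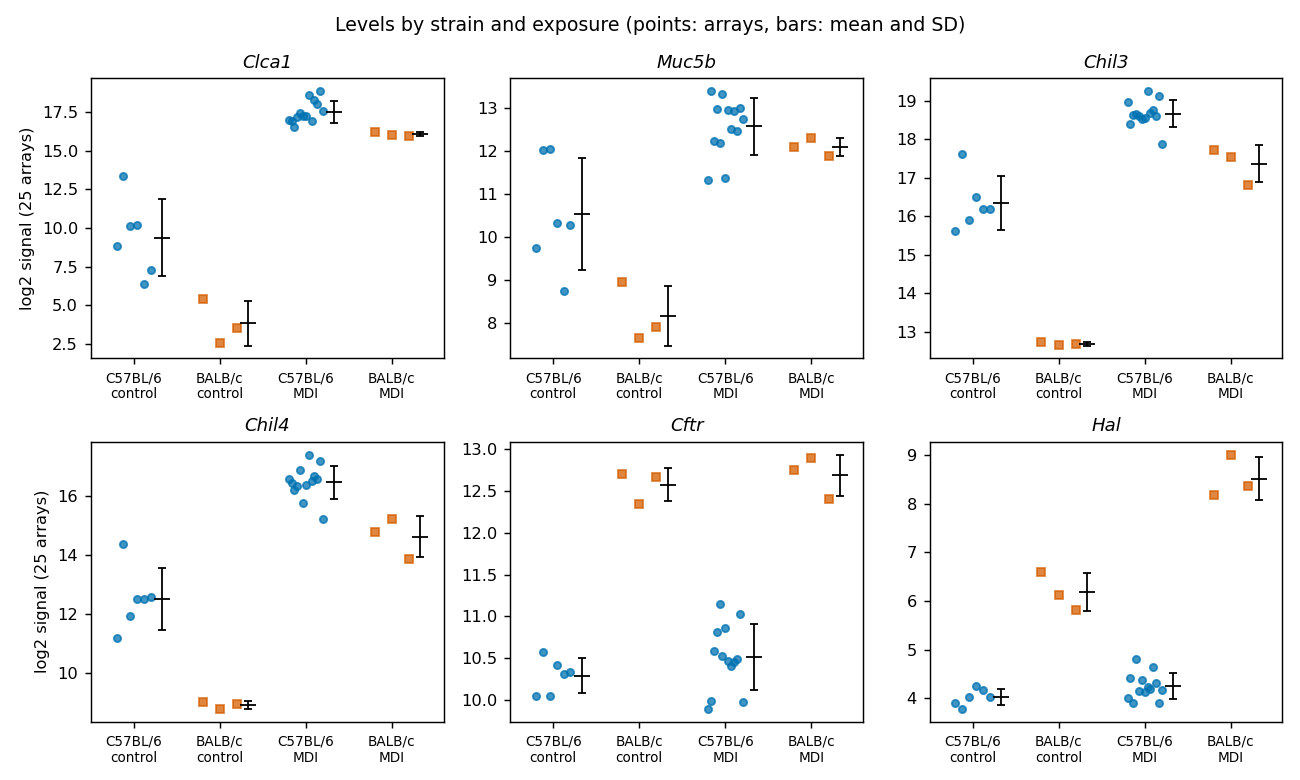
Log2 signal of 6 genes (vertical axes, quantile normalized over 25 arrays) in C57BL/6 control (n = 6), BALB/c control (n = 3), C57BL/6 MDI (n = 13) and BALB/c MDI (n = 3) lung. Points are arrays and bars the mean and SD; Clca1, Chil3 and Chil4 stand lowest in BALB/c controls, Cftr is higher in BALB/c at both exposures, and Hal has means of 6.18 and 8.51 in BALB/c control and MDI lung against 4.03 and 4.25 in C57BL/6.

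Type 2 and T helper 1 genes held calls in both directions. Of 23 measured type 2 cytokines and receptors, 7 were lower in BALB/c, 2 higher and 14 not called (39.1% called, median -0.20). Over all probe sets 28.8% were called. With 49 or 25 arrays normalized together, 6 of the 23 were lower and none higher. Ccl17, a ligand of the receptor CCR4, had 8.32, 7.71 and 7.91 against 9.10 to 10.85 (median 9.91), a difference of -1.86 ± 0.30 (adjusted p = 0.000261). Tslp, an epithelial alarmin, differed by -1.13 ± 0.20 and Il13ra1, a chain of the receptors for interleukins 4 and 13, by -0.70 ± 0.15. With arrays centred on their median Il13ra1 was at -0.33 and not called (adjusted p = 0.104), and Il4ra was called higher (0.48). Il33 (-0.25 ± 0.24) and Il4ra (0.09 ± 0.15) were not called, and the eosinophil chemokine Ccl11 had 8.06 ± 0.34 (SD) against 8.86 ± 0.65 (adjusted p = 0.0556). Ccl11 was called lower with the values as deposited (adjusted p = 0.0286), with array weights (0.0403) and without C57BL/6 control 1 (0.0231), 3 (0.0391) or 4 (0.0347), and its difference of -0.80 was -0.47 in the first block of records and -0.53 with the replicate block. Its relative Ccl24 was higher by 0.87 ± 0.19, a call that ended when 49 or 25 arrays were normalized together (adjusted p = 0.418 and 0.5). Of 19 T helper 1 and cytotoxic genes, 5 were higher and 2 lower (36.8% called, median 0.20). Ifng, the defining T helper 1 cytokine, was dim but separate, at 5.88, 6.01 and 5.85 against 4.63 to 5.09 (median 4.91), a difference of 1.02 ± 0.16. Il18r1, the receptor of interleukin 18, was higher by 1.06 ± 0.14 and Gzmk by 0.89 ± 0.14, whereas Stat4, which relays interleukin 12 signals, differed by -0.99 ± 0.19. With the values as deposited, 4 of the 19 were called higher and 4 lower.

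Of 26 measured chemokines, 6 were lower and 3 higher (34.6% called, against 28.8% of all probe sets). Cxcl13, which attracts B cells, had 13.84, 12.69 and 12.87 in BALB/c and 10.16 to 11.29 (median 10.64) in C57BL/6, a difference of 2.46 ± 0.26 (adjusted p = 3.40e-06). Ccl21a, which guides T cells and dendritic cells, had 11.54, 11.00 and 11.27 against 12.98 to 13.50 (median 13.22), a difference of -1.98 ± 0.15, and is one of several near-identical copies. Cxcl14 differed by -2.32 ± 0.25 and Ccl27a by -1.47 ± 0.17.

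Of 30 measured complement genes, 10 were lower and 2 higher, with a median of -0.29 (40% called, against 28.8% of all probe sets). C1qa, a chain of the recognition molecule of the classical pathway, differed by -1.48 ± 0.21 (adjusted p = 9.84e-05), C4b, its downstream component, by -1.54 ± 0.18, the protease C1s1 by -0.84 ± 0.13 and properdin (Cfp), which stabilises the alternative pathway convertase, by -0.97 ± 0.22. C1qb (-0.24) and C1qc (-0.37), made together with C1qa, were not called. With 49 arrays normalized together the list had 5 lower members and with 25 arrays 6. Without BALB/c control 1 it had 7 lower and none higher. C1s1 was at -0.49 with arrays centred on their median.

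Genes of glutathione chemistry, the route by which MDI is conjugated, differed in both directions. Of 45 measured genes, 10 were lower and 6 higher, and the median was 0.05 (35.6% called, against 28.8% of all probe sets). Beside Gsto1, Gclc, the catalytic subunit of the rate-limiting enzyme of glutathione synthesis, had 12.54, 12.41 and 12.61 against 13.18 to 14.03 (median 13.50), a difference of -0.99 ± 0.16 (adjusted p = 0.000234). The mu-class transferases Gstm1 and Gstm7 were higher, by 0.87 ± 0.13 and 1.21 ± 0.16. With arrays centred on their median Gclc was at -0.60, and 15 members were higher and 6 lower, so the balance of this list depended on the scaling. Of 30 cytochrome P450 genes, 6 were lower and 4 higher, a share of 33.3% near the 28.8% of all probe sets. The retinoic acid hydroxylase Cyp26b1 differed by -3.41 ± 0.61, though its C57BL/6 levels ran from 6.34 to 10.57 and the replicate block gave -2.27, and Cyp2b10, a xenobiotic enzyme, by -1.14 ± 0.17 (-0.73 with arrays centred on their median). Cyp3a13 (-1.54 ± 0.22) and Cyp39a1 (-1.06 ± 0.16) were also lower. Without BALB/c control 2 no P450 gene was called higher, and with arrays centred on their median 6 were called each way.

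Ion channel genes bear on the study because crofelemer, given to other mice of the series, blocks chloride channels. Cftr, the chloride channel that crofelemer is known to block, had 12.76, 12.39 and 12.72 in BALB/c and 10.08 to 10.62 (median 10.36) in C57BL/6, a difference of 2.29 ± 0.15 (adjusted p = 1.53e-08). Best1, a calcium-activated chloride channel, differed by -1.96 ± 0.17 and Clca3a1 by -1.27 ± 0.20. Ano1, the other channel that crofelemer is known to block, was lower by a smaller difference of -0.56. Of 24 measured genes of chloride and ion transport, 4 were higher and 6 lower (41.7% called, against 28.8% of all probe sets). With arrays centred on their median the balance turned to 6 higher and 4 lower.

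Of 15 glucocorticoid-responsive genes, 5 were lower and 1 higher, with a median of -0.58 (40% called, against 28.8% of all probe sets). Fkbp5, a co-chaperone of the glucocorticoid receptor, had 10.55, 8.32 and 8.29 against 10.18 to 12.32 (median 11.44), a difference of -2.20 ± 0.46 (adjusted p = 0.00223), and Zbtb16 differed by -2.55 ± 0.57 (adjusted p = 0.00336; 0.0585 with robust eBayes). In both, BALB/c control 1 stood above the other BALB/c arrays and within the C57BL/6 range. Errfi1 differed by -1.28 ± 0.23 and Sgk1 by 0.77 ± 0.20, the latter not called without BALB/c control 2 (adjusted p = 0.0513) or 3 (0.0616). The list had 3 lower and none higher without BALB/c control 2 or 3, and 2 lower and 1 higher with robust eBayes. It had 8 lower with the replicate block, and 7 lower without BALB/c control 1, in the first block of records or with array weights. With the values as deposited or arrays centred on their median it had 3 lower and 2 higher, as it did without C57BL/6 control 1 or 2.

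**Figure D4:**
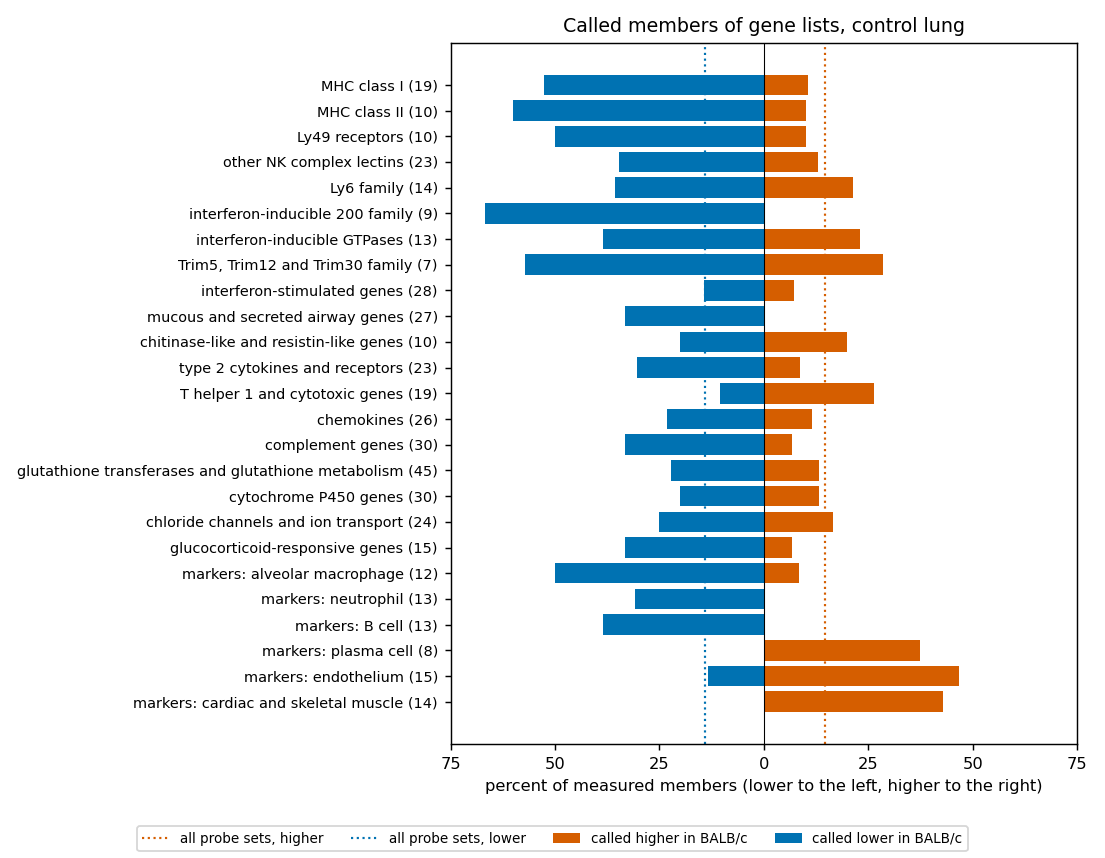
Percent of the measured members of each gene list (number in brackets) that were called lower (blue, to the left) or higher (orange, to the right) in BALB/c control lung. Dotted lines mark the 14.2% lower and 14.7% higher among all probe sets; the p200, H2 and Trim family lists have over 50% of their members to the left, followed by the Ly49 and alveolar macrophage lists at 50%, and the endothelial and muscle lists reach furthest to the right among the lists plotted.

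Markers of cell types were read next. Of 12 measured markers of alveolar macrophages, 6 were lower and 1 higher (58.3% called, against 28.8% of all probe sets, median -0.51). Marco, a scavenger receptor of these cells, had 5.93, 5.47 and 5.14 against 7.56 to 10.13 (median 8.30), a difference of -3.13 ± 0.45 (adjusted p = 0.000101), Fabp5, a fatty acid carrier, differed by -1.68 ± 0.21 and Krt79 by -1.47 ± 0.18. Chil3 is on this list too. Siglecf, which is also on the eosinophil list, was higher by 1.17. Itgax (0.23), Car4 (0.30) and Mrc1 (-0.29) were not called, and Car4 is on the endothelial list too. The mean level of the alveolar macrophage list was 10.28 to 11.21 in BALB/c and 10.76 to 11.95 in C57BL/6 arrays. The part of cell number in the Chil3 difference was not tested. Lungs had been lavaged, which removes many of these cells.

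Neutrophil markers were variable, with 4 of 13 lower, none higher and a median of -1.14. The share called, 30.8%, was near the 28.8% of all probe sets. S100a8, an abundant calcium-binding protein of neutrophils, had 8.29, 10.17 and 7.31 against 10.03 to 13.25 (median 11.59), a difference of -3.09 ± 0.62 (adjusted p = 0.00163), and Il1r2, a decoy receptor of interleukin 1, differed by -2.77 ± 0.45. The mean level of the list ran from 7.21 to 8.80 in BALB/c and from 7.98 to 10.09 in C57BL/6 arrays. The count was sensitive to single arrays. It was 7 without BALB/c control 2 or without C57BL/6 control 6 and 8 with the first block of records, but 2 without BALB/c control 1 or 3 and 2 with robust eBayes. The collagenase Mmp8 (-2.17 ± 0.63) and the receptor Trem1 (-1.07 ± 0.37) lost their calls without BALB/c control 1 (adjusted p = 0.0549 and 0.109) or 3 (0.122 and 0.201) and with robust eBayes (0.124 and 0.129). Trem1 also lost it without C57BL/6 control 1, 2, 3 or 4 (adjusted p from 0.0542 to 0.0673).

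Genes of the B cell lineage were read as 2 lists. Of 13 measured B cell markers, 5 were lower and none higher, with a median of -0.40 (38.5% called, against 28.8% of all probe sets). Cd79a, a signalling chain of the B cell receptor, had 9.23, 9.36 and 10.11 against 10.26 to 11.79 (median 11.20). Its difference was -1.55 ± 0.28 (adjusted p = 0.0007). Bank1 differed by -1.34 ± 0.22 and Cd79b by -0.81 ± 0.20, while Ms4a1 (-0.40) and Cd22 (0.15) were not called. Pax5 (-0.88 ± 0.26) lost its call without BALB/c control 1 (adjusted p = 0.119). Of 8 plasma cell markers, 3 were higher and none lower (37.5% called, median 0.11). Jchain, which links polymeric immunoglobulins, had 11.33, 11.35 and 11.65 against 7.99 to 10.68 (median 9.02), a difference of 2.20 ± 0.51 (adjusted p = 0.00406; 0.0622 with robust eBayes), and the chaperone Mzb1 differed by 0.95 ± 0.17 (0.63 with the values as deposited). Prdm1, the regulator of plasma cell fate, differed by 1.00 ± 0.25 (adjusted p = 0.0587 without BALB/c control 2), while Xbp1 was not called (-0.24 ± 0.13).

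Endothelial genes leaned higher in BALB/c, with 7 of 15 higher and 2 lower (median 0.30). That was 60% called, against 28.8% of all probe sets (14.7% higher and 14.2% lower). Kdr, the main receptor of vascular endothelial growth factor, had 16.70, 16.81 and 17.07 against 15.47 to 15.78 (median 15.60), a difference of 1.25 ± 0.11 (adjusted p = 7.13e-07), and the apelin receptor Aplnr differed by 1.72 ± 0.21. Vwf, the von Willebrand clotting factor, was opposite, at 10.62, 10.90 and 10.69 against 12.76 to 13.47 (median 13.07), a difference of -2.34 ± 0.15 (adjusted p = 1.13e-08). Pecam1 (0.22) and Cldn5 (0.10), which mark the lineage as a whole, were not called. With arrays centred on their median 12 members were higher.

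Cardiac and skeletal muscle markers had levels that differed between arrays, and 42.9% of them were called, against 28.8% of all probe sets. Of 14, 6 were higher and none lower (median 1.06), among them the atrial myosin light chain Myl4 (2.54 ± 0.62, adjusted p = 0.00596; 0.0787 with robust eBayes), Actc1 (1.00 ± 0.24) and Ckm (1.11 ± 0.29). Their mean level was 10.38, 8.68 and 9.33 in BALB/c and 7.09 to 9.32 in C57BL/6 arrays. Without BALB/c control 1, the highest, 3 were higher and Ckm lost its call (adjusted p = 0.0646). Myl1 and Myoz2 kept their calls in all 20 alternatives. In MDI lung, 9 of the 14 listed markers were higher in BALB/c and none lower (median 1.11). Myl1 differed there by 3.42 ± 0.45 and Myoz2 by 3.46 ± 0.32. Adipose markers were highest in the same array (9.24, against 5.97 and 6.38 in the other BALB/c arrays and up to 7.96 in C57BL/6). The part of attached heart or muscle tissue in the differences of Myl1, Myoz2 and the listed genes was not tested.

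Some properties of single probe sets bear on how these differences can be read. Of genes on a list of documented strain variants or absences, 11 were measured, and 1 was higher, 2 lower and 8 not called, a share of 27.3% called against 28.8% of all probe sets. Tyr and Tyrp1, in which BALB/c mice carry the albino and brown coat alleles, were dim in both strains (3.38 and 3.49 in BALB/c, 3.27 and 3.65 in C57BL/6) and not called. Nlrp12 differed by -1.56 ± 0.46 and Pla2g2a by -0.59 ± 0.19, and both lost their calls without BALB/c control 1 (adjusted p = 0.0691 and 0.0812) or 3 (0.136 and 0.117). Nlrp12 also lost it with robust eBayes (0.115), and Pla2g2a in the first block of records (0.0911) and with the replicate block (0.141). Wdfy1 differed by 0.53 ± 0.16 and lost its call without control 1 (adjusted p = 0.0918) or 2 (0.0636), and with the values as deposited (0.23, adjusted p = 0.273). Prkdc (-0.31), Cdkn2a (0.26), Havcr1 (-0.12), Gabra2 (-0.17), Cdh23 (0.13) and Tpsab1 (-0.10) were not called. Tyrp1 was called with the values as deposited (-0.37) and Cdkn2a with arrays centred on their median (0.32). Among 12 measured reference genes, taken as stable in many tissues, 4 were higher and 3 lower (58.3% called, against 28.8% of all probe sets). The ribosomal protein gene Rplp0 differed by -1.87 ± 0.15 (adjusted p = 1.47e-07), a choice made after its value was seen. Gene symbols were given for 19572 probe sets and none for 2634. Among the latter, 59 were higher and 104 lower by at least 2-fold, against 570 higher and 663 lower of all 22206 probe sets (5.55%). The largest difference of all belonged to an unnamed probe set, TC1700001907.mm.2, at 14.75 ± 0.13 (SD) in BALB/c and 3.47 ± 0.22 in C57BL/6. It was the only one with a BALB/c mean above 9.85 and a C57BL/6 mean below 4.55, the upper and lower quartiles of probe set levels, and no probe set had the reverse.

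Of 55 genes with more than 1 probe set, 26 had none called, 11 had all called in one direction, 16 had some called in one direction and 2 had calls in both. Genes with large differences also tended to sit side by side on the chromosome. Over 19504 genes placed in order, 5.5% were called at least 2-fold, and the next gene was called as well for 110 of 1064 (10.3%), in the same direction for 70.9% of those. For calls of any size the next gene was called in 31.3% of cases, near the 29.0% of all placed genes. There were 19 runs of 3 or more neighbours called at least 2-fold, with 67 genes. The longest held 8 genes, all lower, among them Fam205a4, Fam205a3, Fam205a2 and Ccl21b. Others were Klrb1, Klrb1c, Klrb1b and BC035044, all lower, then Ifi213, Ifi209 and Ifi208, all lower, then Serpina1a, Serpina1c and Serpina1e, all higher, and Chia1, Chil3 and Chil4, of which 1 was higher and 2 lower. Neighbours that are copies of one another can share probes, and no test was made of this clustering.

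The same strain contrast could be read in arrays that share none with the controls. In lungs exposed through the nose to MDI-glutathione products, 3 BALB/c and 13 C57BL/6 arrays gave 6716 calls (30.2%; 15.5% higher and 14.7% lower). Of the 3257 probe sets higher in control BALB/c lung, 2006 (61.6%) were called higher again and 3 lower, and of the 3144 lower ones, 1975 (62.8%) were called lower again and 5 higher. These were 58.2% and 60.5% of the higher and lower calls in MDI lung. Among control calls of at least 2-fold, 519 of 570 higher (91.1%) and 579 of 663 lower (87.3%) were called again. At a log2 difference of 3 or more, 19 of 19 and 36 of 38 were. Over the 6401 called probe sets the differences correlated at 0.922 (Pearson, across probe sets, which are not independent replicates). Apobec3 differed by -6.38 ± 0.20 in MDI lung, Ctse by 6.54 ± 0.30, Baiap2l1 by 4.63 ± 0.21, H2-Ab1 by -2.83 ± 0.26 and Cftr by 2.17 ± 0.22. Some lists had other counts in MDI lung. The MHC class I list, 10 lower and 2 higher in controls, had 2 lower and 3 higher there (median 0.04). The glucocorticoid-responsive list, 5 lower and 1 higher in controls, had 1 lower and 4 higher (median 0.10). These differences between lists at the 2 exposures were not tested. Whether the BALB/c arrays were processed apart from the C57BL/6 arrays is not given in the sources used here, so this repetition does not separate strain from processing. The MDI count was 4321 without BALB/c MDI array 1 and 4409 without array 3.

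B-cell deficient mice, which lack a functional mu heavy chain gene and have a C57BL/6 background, gave a further C57BL/6-type comparator. BALB/c MDI lung against 7 B-cell deficient MDI arrays gave 9601 calls (43.2%; 22.2% higher and 21.1% lower), and 1951 of the 3257 higher (59.9%) and 1952 of the 3144 lower control calls (62.1%) were called in the same direction, with 64 and 72 opposite. Apobec3 differed by -5.58, Ctse by 6.97, Trim30d by -3.92, Vwf by -2.25 and Cftr by 2.83. Cd79a (4.83) and Jchain (9.91), genes of the B cell lineage, were called higher in BALB/c there. This comparison uses the same BALB/c MDI arrays as the one before, and the B-cell deficient set has its own level of array means (8.033 to 8.047). As deposited it gave 16610 calls, so its count depends on normalization.

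**Figure D5:**
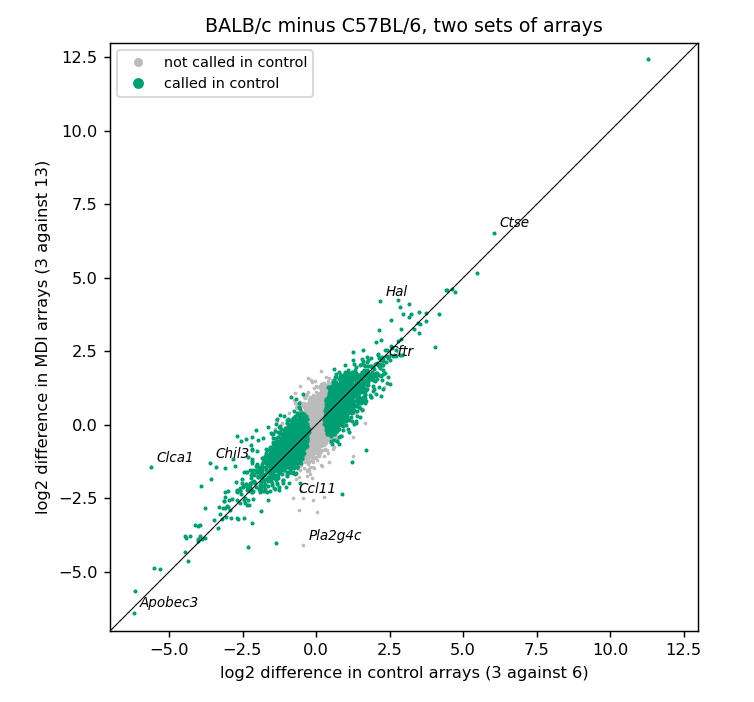
Log2 difference of BALB/c minus C57BL/6 in MDI arrays (vertical axis, 3 against 13) against that in control arrays (horizontal axis, 3 against 6) for each probe set, with the line of equality. Green points were called in control lung; Apobec3 and Ctse lie near the line, while Clca1 and Chil3 lie above it and Pla2g4c and Ccl11 below it.

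Whether the strain difference depended on exposure was tested over the 25 arrays of both strains. Only 4 probe sets passed (0.018%; limma, Benjamini-Hochberg; 1584 at an unadjusted p under 0.05). Chil3 differed by -3.62 in control and -1.30 in MDI lung, a change of 2.35 ± 0.38 (adjusted p = 0.00583; 0.107 with the values as deposited). Hal, or histidase, which breaks down histidine, was higher by 2.18 ± 0.18 in controls and 4.21 ± 0.19 in MDI lung, and the change was 2.11 ± 0.27 (adjusted p = 0.000158). The phospholipase Pla2g4c was not called in controls (-0.45 ± 0.20, but called at -0.65 without BALB/c control 3). It differed by -4.09 ± 0.37 in MDI lung, a change of -3.67 ± 0.51 (adjusted p = 0.000647). In controls its signal was near the low end of the scale, at 3.03 to 3.69 in BALB/c and 3.36 to 4.21 in C57BL/6. A difference may not be seen at such levels. Hal was dim in C57BL/6 controls too (3.72 to 4.19). Only Pla2g4c kept its call with a replicate block. That block was fitted only on arrays whose number occurs in every group, with 6 residual degrees of freedom against 21 in the main fit. There Chil3 had an adjusted p of 0.23 and Hal of 0.134. Clca1 had differences of -5.63 in control and -1.43 ± 0.35 in MDI lung, and Muc5b -2.37 and -0.48 ± 0.33, without passing this test. Ccl11 (-2.50 ± 0.60) and Ccl24 (-2.36 ± 0.89) were lower in BALB/c MDI lung, the latter opposite in sign to its control difference.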

How the data were processed

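The deposited table holds log2 signals with 2 decimals for 22206 probe sets and 51 arrays. Transcriptome Analysis Console is named in the submitters' processing notes; its version was not given in the sources used here, nor was the normalization. The log2 base was inferred from the range of the deposited values (largest 20.91), so folds hold on that scale and may differ from ratios of readings. From these values the 9 control arrays were quantile normalized together, and the strain difference was fitted with limma 3.58.1 in R 4.3.3 (lmFit and eBayes with an intensity trend, 2-sided, 7 residual degrees of freedom). Benjamini-Hochberg adjustment ran over the whole table, and calls were made under 0.05. The MDI, B-cell deficient MDI and strain-by-exposure fits used 16, 10 and 25 arrays, normalized together in each. The number of arrays limits the precision, and 2 arrays with contradictory labels were left out. Gene symbols came from the platform annotation, with 1 probe set for most genes.

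Named genes were the 15 largest called differences each way, up to 4 members of smallest adjusted p of each of 25 described lists, all measured genes of the documented-variant list, and 12 airway genes. Members and lists were chosen with earlier results of these data known. Alternatives covered normalization, dim probe sets, the variance model, array weights, a minimum difference and the first block of consecutive records. They also covered leaving out each array and a replicate block. The block was fitted only on arrays whose number occurs in every group (for the controls, numbers 1 to 3). List counts under these were added after seeing the data. The scripts were tested on simulated data. Figures were drawn with matplotlib 3.10.9.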

Additional observations from a re-analysis of the deposited data

Results flagged for a closer look

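Among 142 named genes, 8 had a single C57BL/6 control array standing apart from the other 5, beyond Dixon's 95% limit; chance alone gives about 1 in 20. Control 6 was high for Fbp2 (4.95, nearest 4.48) and low for Cd79b (8.33, nearest 8.95). Control 3 was low for Il1a (4.44, nearest 5.86) and high for Ifi213 (13.91, nearest 13.17). Control 1 was high for Gpihbp1 (12.65, nearest 12.13) and low for Tpsab1 (3.30, nearest 3.58). Control 2 was high for Tyr (3.66, nearest 3.25) and Muc5ac (6.91, nearest 5.71). No value beyond the limit reached the range of the BALB/c arrays for Fbp2, Il1a, Ifi213 or Gpihbp1.

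The strain difference itself differed between MDI and control lung, by the interaction term of limma, for Chil3 (2.35), Hal (2.11), Pla2g4c (-3.67) and the unnamed probe set TC1700001907.mm.2 (1.26 ± 0.21, adjusted p = 0.00674).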

How the results depend on the processing

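The count of 6401 control calls was 8220 with the values as deposited and 7953 with arrays centred on their median. Of these, 5094 and 5234 were among the 6401. The control count was 5316 and 5137 with 49 or 25 arrays normalized together. With 1 array left out it ranged from 4409 to 6270, and it was 5925 in the first block of consecutive records. It was 3984 among the 11103 brighter probe sets (811 at 2-fold or more) and 907 against a minimum difference of 0.5, both by construction fewer. MDI lung gave 3722 calls among brighter probe sets and 4321 to 7415 with 1 array left out, and the B-cell deficient comparison 16610 as deposited and 5296 among brighter probe sets. The strain-by-exposure calls numbered 2 as deposited and 3 to 6 with 1 BALB/c array or C57BL/6 control left out; the C57BL/6 MDI arrays were not left out in that fit. Same-numbered control arrays of the 2 strains correlated at -0.117, -0.025 and 0.02 in their deviations from group means. Differently numbered ones ran from -0.114 to 0.123. With so few arrays this cannot decide whether the numbers pair the samples. A replicate block was fitted only on arrays whose number occurs in every group compared, so it also left out arrays. It had 2 residual degrees of freedom for the control, MDI and B-cell deficient comparisons (7, 14 and 8 in the main fits). For strain by exposure it had 6 (21 in the main fit). It gave 4738 control calls, 2872 in MDI lung, 6969 in the B-cell deficient comparison and 1 for strain by exposure. Blocking and fewer arrays cannot be told apart here. Of 127 called named genes, 89 kept the call in every setting run and 117 with any 1 array left out. Of the named genes, signs turned only for uncalled ones: Xbp1 (0.09) and Il33 (0.15) with arrays centred on their median, Tyr (-0.08) and Cdh23 (-0.19) as deposited, and Havcr1 in the first block (0.09) and with the replicate block (0.29). With 1 array left out, Tyr ranged from -0.04 to 0.19, Cdh23 from -0.14 to 0.32 and Havcr1 from -0.28 to 0.05. The causes were not tested.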

Other observations

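Of 22 listed proliferation genes, 21 were measured and 1 was lower, none higher (4.76% called, against 28.8% of all probe sets). Of 17 circadian clock genes 2 were lower and none higher (11.8% called), and of 18 Fc receptor genes 2 were higher and 1 lower (16.7% called). Of 12 alveolar type 1 markers 7 were lower and none higher (58.3% called, median -0.30), against 1 lower and 1 higher in MDI lung. Of 14 alveolar type 2 markers 1 was higher and 1 lower (14.3% called). Of 17 inflammasome genes of the NAIP and NLRP families 6 were lower and 1 higher (41.2% called, median -0.42). In MDI lung 9 of these 17 were lower and 3 higher, and 13 of the 21 proliferation genes were lower in BALB/c, with none higher and a median of -0.79.

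Of the unnamed probe sets, TC0100003599.mm.2 was higher in BALB/c by 4.41 ± 0.16 and TC0X00001208.mm.2 lower, with a difference of -5.30 ± 0.17.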
